A study of Mus musculus with 12 samples.

Results

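Cytoplasmic ribosomal protein genes encode the protein part of the ribosome that translates nuclear mRNAs, with Rps genes for the small subunit and Rpl and Rplp genes for the large one. They were taken by name: every gene of the tables written as Rpl or Rps with a number and at most one letter a or x, together with Rplp0, Rplp1, Rplp2 and Rpsa. Names of pseudogenes, of the S6 kinases and of the paralogs Rps27l and Rpl22l1 were left out. This gave 76 genes of 25078, 30 for the small subunit and 46 for the large, and 75 of them passed the filter on low counts. The remaining gene, Rpl26, was listed at 0 counts in all 12 libraries.

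Expression was measured by RNA sequencing in LSK cells, the Lin-Sca1+cKit+ cells of bone marrow among which hematopoietic stem cells and multipotent progenitors are found. The groups were CM IR, CM NIR, WT IR and WT NIR. CM mice carry Cbfb-MYH11, a fusion found in acute myeloid leukemia with inversion of chromosome 16, and were at a preleukemic stage; WT mice are the control animals, whose genotype the labels give as wild type. The library names mark WT animal 2 as WT and WT animals 1 and 3 as C, a code that is not explained. Sorted cells received 3.5 Gy of irradiation outside the animal (IR) or the same incubation without it (NIR), and RNA was taken at 24 h. Each of 6 animals gave 1 IR and 1 NIR library, so each group holds 3 libraries from 3 animals. Every group consists of cells kept in culture for the same time. The sources used here do not state the age of the animals or how the fusion was induced. Libraries in which cells of a type are fewer and libraries in which each cell holds less of an RNA cannot be told apart, since whole sorted samples were sequenced.

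Most ribosomal proteins are needed in equal amounts for every ribosome. The mRNAs of ribosomal proteins are known for a tract of pyrimidines at the 5′ end, the TOP motif, through which growth signals set their translation. Free RPL5 and RPL11, held together with 5S ribosomal RNA, bind and inhibit MDM2, the ligase that degrades p53, so that a failure of ribosome assembly raises p53. In blood the family is known for Diamond-Blackfan anemia, caused by loss of 1 copy of RPS19 or other members, and for the 5q- syndrome, in which RPS14 is lost.

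Total gene counts ran from 68490566 to 110795261 a library. Myh11, whose 3′ part is in the fusion, had 18 to 39 counts in CM libraries and 9 to 24 in WT libraries, and these counts do not separate the fusion from the normal allele. Kit, which marks the sort gate, was measured at 148 to 284 CPM in all libraries and Ly6a, which encodes Sca1, at 42.0 to 457 CPM. CM animal 2 stood apart from CM animals 1 and 3: its summed mast cell and basophil markers came to 325 CPM (IR) and 238 CPM (NIR), against 1101 to 1695 CPM (IR) and 1434 to 1887 CPM (NIR) in the other CM animals and 190 to 706 CPM in WT. The IR and NIR libraries of CM animal 3 also differed, with Cd34 at 497 and 230 CPM and with a correlation of 0.13 between their deviations from the group means, against 0.41 to 0.84 in the other 5 animals. These correlations are over all genes; over the ribosomal protein genes the value for CM animal 3 was 0.70, against 0.59 to 0.85 in the other animals. Summed erythroid markers came to 599 to 618 CPM in CM IR against 643 to 738 CPM in CM NIR, and to 660 to 766 CPM in WT IR against 707 to 1071 CPM in WT NIR. Tfrc alone made up most of this sum, at 373 to 526 CPM in CM IR and 586 to 688 CPM in WT IR. By single genes, 10 of 11 tested erythroid markers were higher in CM than in WT in IR cells (52.9% of all genes). In NIR cells it was 7 of 11 (52.6% of all genes). Their median log2 fold changes were 1.33 (IR) and 0.40 (NIR), and 0 were called (0.664% and 1.62% of all genes). Other lists held calls for CM over WT. Of 13 neutrophil and myeloid markers, 2 were called higher and 3 lower in NIR cells, and 0 in IR cells. Of 10 mast cell and basophil markers, 1 (IR) and 2 (NIR) were called higher. Of 11 macrophage and dendritic cell markers, 1 was called lower with each treatment. Markers of T and NK cells summed to 10.7 to 30.8 CPM in CM NIR and 36.5 to 38.1 CPM in WT NIR, and to 12.7 to 41.6 CPM in CM IR and 39.8 to 46.0 CPM in WT IR, which overlapped. The alpha and beta globin genes of the erythroid list (Hbb-bs, Hbb-bt, Hba-a1 and Hba-a2) were at 0. The part of these cell markers in the results on ribosomal protein genes was not tested.

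Many ribosomal protein genes have near-identical processed copies elsewhere in the genome. The stretches that follow are 60 bases of a coding exon beside the same stretch of a copy, from GENCODE vM21 (GRCm38), shown because the counts of 2 of these pairs differ widely. Capitals mark the bases that differ within a pair. For each pair the first stretch within 1 exon that held the most differences, up to a limit of 3, was taken. The 3 differences of the Rpl14 pair are thus that limit. Of the 50-base coding stretches of Rpl14, 77.7% occur unchanged in Rpl14-ps1. The first pair is Rps6 (chr4:86856800-86856859, minus strand) and the processed pseudogene Rps6-ps4 (chr2:75191757-75191816, minus strand), which are identical here.
Rps6: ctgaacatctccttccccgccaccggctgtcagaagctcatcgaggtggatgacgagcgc
Rps6-ps4: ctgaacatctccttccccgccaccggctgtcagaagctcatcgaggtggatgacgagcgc
The second is Rpl14 (chr9:120574137-120574196, plus strand) and Rpl14-ps1 (chr7:45325361-45325420, plus strand), which differ at 3 of 60 bases.
Rpl14: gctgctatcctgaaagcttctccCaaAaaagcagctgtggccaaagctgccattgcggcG
Rpl14-ps1: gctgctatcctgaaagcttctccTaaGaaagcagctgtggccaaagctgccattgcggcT
GENCODE lists Rpl10-ps3 as protein coding. The third pair is Rpl10 (chrX:74271800-74271859, plus strand) and Rpl10-ps3 (chr9:50344800-50344859, minus strand), again identical here.
Rpl10: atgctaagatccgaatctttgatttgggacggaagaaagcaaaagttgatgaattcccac
Rpl10-ps3: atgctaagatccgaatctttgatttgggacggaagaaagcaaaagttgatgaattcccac

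Levels of the members differed by more than 1000-fold although most of their proteins are equal parts of the ribosome. Rpl4, a large subunit protein that lines the exit tunnel, was highest at 1575 RPKM (mean over 12 libraries; reads per kilobase of exon and scaled to library size). Rpl41, which encodes the smallest ribosomal protein, averaged 1244 RPKM and Rpl8 averaged 1178 RPKM. At the low end were Rps27 at 1.18 RPKM and Rpl30 at 0.961 RPKM, with means of 57.9 and 51.5 counts a library. Rpl4 held 15.1% of the counts of the 76 genes, Rps3 7.3%, Rpl8 6.75% and Rps9 5.21%.

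The order of levels went with how much of a gene's coding sequence is unique. For each gene the share of its coding stretches of 50 bases that also occur in a transcript of another annotated gene was counted in GENCODE vM21. The median share was 84.7% over the 76 genes and 0% over 13326 other tested genes. All stretches were shared in 20 members, among them Rps6, Rpl5, Rps23 and Rps13, whereas 8.73% were shared in Rpl8 and 6.74% in Rps3. The 12 members under 50% had a median level of 985 RPKM, and the 64 members at 50% or more had a median of 31.1 RPKM. Across the 76 genes the share and the level were related at a Spearman coefficient of -0.60, and at -0.68 when stretches of 100 bases were used. This is a relation across genes of the same libraries, given as a description; how the authors' counting treated reads with several matches is not stated in those sources.

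**Figure D1:**
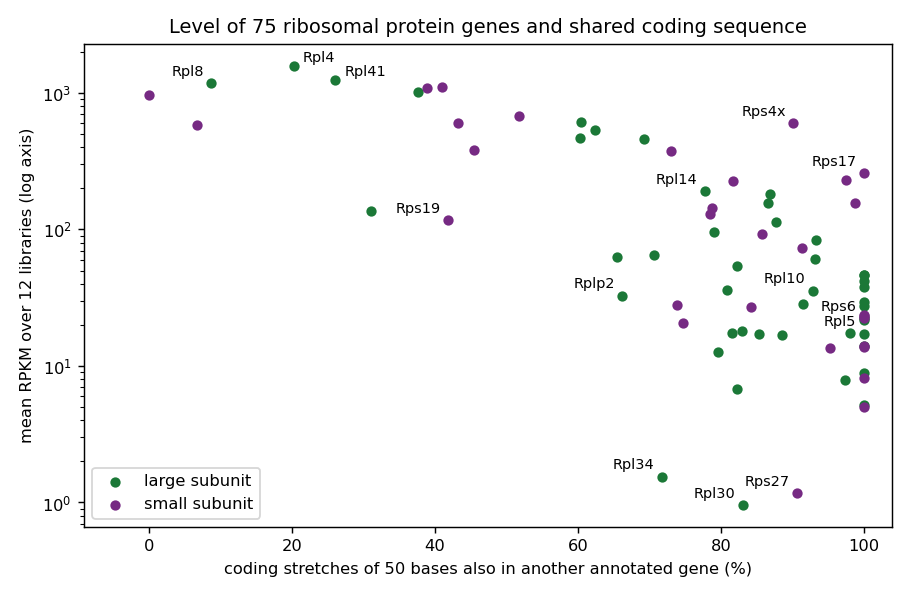
Mean RPKM over 12 libraries (log axis) of 75 ribosomal protein genes against the percentage of coding stretches of 50 bases that occur in another annotated gene; Rpl26, at 0 RPKM, cannot be drawn. Members with under 50% shared lie between 116 and 1575 RPKM, and the genes under 2 RPKM (Rpl34, Rps27 and Rpl30) all have more than 70% shared. For Rpl34 and Rps27 the entry that shares the most overlaps the gene itself in position.

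Of the copies printed above, Rps6-ps4 and Rpl14-ps1 held large counts of their own, and the counts of Rpl10-ps3 were not analysed here. Rps6, whose protein is phosphorylated by the S6 kinases, averaged 2667 counts a library (22.3 RPKM), whereas its pseudogene Rps6-ps4 averaged 79030 counts (1066 RPKM). Rpl14 averaged 15201 counts (192 RPKM) and Rpl14-ps1 57899 counts (975 RPKM). Rpl37 averaged 499.5 counts, against 27211 counts for Rpl37rt, its annotated retrotransposed copy, which holds 82.2% of the coding stretches of Rpl37. Rpl26 shares 78% of its stretches, and Gm15772, the copy it shares the most with, was not analysed here. For Rps27 and Rpl34 the entry that shares the most overlaps the gene itself in position on chromosome 3. These entries are Rps27rt (90.6% of the stretches of Rps27) and Rpl34-ps1 (71.7% of those of Rpl34), and both had 0 counts in all 12 libraries. For members with such copies or overlapping entries the count of the gene is therefore uncertain as a measure of its mRNA. The median number of pseudogenes sharing at least 1 stretch was 8.5 a gene, and the highest was 120, for Rpl7a.

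Start-site windows were available from RefSeq (GRCm38.p6) for 56 of the 76 members. CTTTCC or CTCTTT on the gene's strand, letters of a TOP tract, lay within 10 bases of the annotated start in 9 of these 56 (16.1%), against 1.39% of 18502 genes with a window. Searched on both strands from 250 bases before the start to 50 after it, CCGGAAG, the core of the GABPA and other ETS factor motif, was found in 39.3% of members and 11.8% of genes. AAGATGG, the core of the YY1 motif, was found in 16.1% and 6.42%, and GGGCGG, the GC box, in 58.9% and 46.1%. TATAAA was found in 10.7% of members and 13% of genes. These are matches of letters and not measured sites. Members without CTTTCC or CTCTTT there can still hold a run of pyrimidines near the start, as Rpl7a does. The 16.1% is therefore not the share of members with a TOP tract. The 30 bases around the start are shown for 3 members, chosen from the 9 that hold the pyrimidine letters, with those letters in capitals, to show where they lie.
Rps6 (chr4:86857353-86857382, minus strand): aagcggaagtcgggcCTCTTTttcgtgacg
Rpl38 (chr11:114668565-114668594, plus strand): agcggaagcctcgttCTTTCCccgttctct
Rpl28 (chr7:4792950-4792979, plus strand): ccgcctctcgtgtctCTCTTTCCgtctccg

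The summed share of the 76 genes in all counts differed by less than the spread between CM animals. It was 1.57 ± 0.25% in CM IR, 1.48 ± 0.14% in CM NIR, 1.51 ± 0.055% in WT IR and 1.48 ± 0.030% in WT NIR (SD, n = 3 each). CM animal 2 was the highest animal of both CM groups, at 1.86% (IR) and 1.65% (NIR), while CM animal 1 had 1.47% (IR) and 1.39% (NIR) and CM animal 3 had 1.39% (IR) and 1.42% (NIR). In WT the 3 animals lay between 1.45 and 1.56% (IR) and between 1.46 and 1.51% (NIR). CM values thus lay on both sides of the WT values with either treatment. With 3 animals a group an exact permutation test of CM against WT cannot go below p = 0.10. The floor is higher for IR against NIR, whose libraries are paired by animal. No test was run on this sum.

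The first question was whether the genes changed 24 h after irradiation. By the quasi-likelihood test of edgeR, with p adjusted over all genes and a threshold of 0.05, none of the 75 tested genes was called for IR over NIR in CM or in WT cells. The background was also small, with 0.00685% of 14599 genes called in CM and 0.116% in WT. At an unadjusted p under 0.05 no member was found, against 1.62% of all genes in CM and 4.05% in WT. DESeq2, limma-voom and an edgeR fit with the animal as a block also called 0 members in both comparisons. The blocked fit called 0% of all genes in CM and 1.12% in WT. The shares of all genes for DESeq2 and limma-voom are not given here. The median log2 fold change of the members was 0.06 in CM, where all genes had a median of 0.00, and 0.02 in WT, where all genes had a median of -0.01. The number of members with a positive value was 61 of 75 in CM (49.6% of all genes) and 48 of 75 in WT (47.4% of all genes).

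The intervals give the sizes that the fit with 1 mean per group allows; they do not use the pairing of libraries by animal. In CM, 56 of 75 members had a 95% interval lying wholly within 1.5-fold in either direction, and 75 lay within 2-fold. In WT these numbers were 59 and 74. The median in CM was 0.07 for the small subunit and 0.05 for the large, and in WT 0.03 for the small and 0.02 for the large.

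Within animals the small differences did not all run the same way. The median difference (IR minus NIR, log2 CPM) over the 75 genes was 0.06, 0.17 and -0.10 in CM animals 1, 2 and 3, and 0.03, 0.04 and -0.01 in WT animals 1, 2 and 3. In CM animal 2, 69 of 75 genes were higher in the IR library (48.1% of all genes), whereas in CM animal 3 it was 17 of 75 (49.8% of all genes). In CM animal 1 the number was 52 (52.8% of all genes), and in WT animals 1, 2 and 3 it was 48, 49 and 31 (48%, 49.6% and 49.9% of all genes). Leaving out both libraries of CM animal 2 gave a CM median of -0.01, and leaving out both of CM animal 3 gave 0.13, against 0.06 with all animals.

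**Figure D2:**
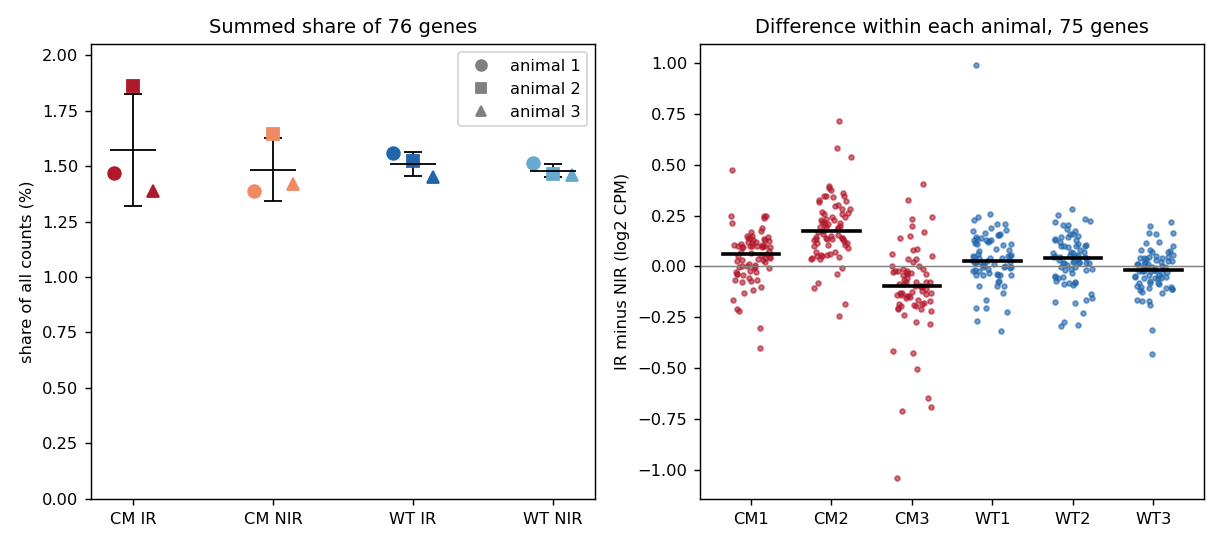
Left, summed share of the 76 genes in all counts (%) for each library by group, with lines and bars for the mean and SD of 3 animals; right, difference IR minus NIR in log2 CPM for 75 genes (points) and their median (line) in each animal. CM animal 2 stands highest in the share at 1.86% and 1.65%, and the medians within CM animals run from -0.10 to 0.17.

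Among named members, those of the 5S and MDM2 branch did not pass. Rpl11 had 9.14, 14.9 and 7.598 CPM in CM IR, 9.38, 12.4 and 8.07 CPM in CM NIR, 10.3, 8.63 and 8.59 CPM in WT IR and 8.68, 9.11 and 9.26 CPM in WT NIR (animals 1, 2 and 3). The IR and NIR libraries overlapped in both genotypes, and CM animal 2 was highest with each treatment. Its log2 fold change was 0.08 ± 0.24 in CM and 0.02 ± 0.24 in WT (SE). Rpl5 stood at 0.10 ± 0.22 in CM and -0.11 ± 0.22 in WT. Rpl23, whose protein also binds MDM2, stood at 0.09 ± 0.15 in CM and -0.02 ± 0.15 in WT.

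Rps19 and Rps14, the disease genes of the small subunit, likewise did not pass. Rps19 had 149, 170 and 83.1 CPM in CM IR, 138, 134 and 96.0 CPM in CM NIR, 145, 95.8 and 88.6 CPM in WT IR and 127, 78.8 and 88.0 CPM in WT NIR. The groups overlapped, and the low values came from the animals of one library series described further on. Its log2 fold change was 0.13 ± 0.29 in CM and 0.16 ± 0.29 in WT. Rps14 stood at 0.19 ± 0.16 in CM and 0.08 ± 0.16 in WT.

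The stalk genes, which recruit translation factors to the ribosome, did not pass either. Rplp1 had 301, 361 and 270 CPM in CM IR, 279, 292 and 290 CPM in CM NIR, 317, 295 and 272 CPM in WT IR and 295, 256 and 267 CPM in WT NIR. IR libraries were higher than the NIR library of the same animal in 5 of 6 animals, with CM animal 3 as the exception. The log2 fold change was 0.11 ± 0.11 in CM and 0.11 ± 0.11 in WT. Rplp0 stood at -0.01 ± 0.18 in CM and 0.03 ± 0.18 in WT, and Rplp2 at 0.02 ± 0.16 in CM and 0.04 ± 0.16 in WT.

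The members with the smallest p after irradiation did not pass. Rpl10 had the smallest in CM, with 33.9, 36.8 and 25.1 CPM in CM IR and 35.6, 35.7 and 40.5 CPM in CM NIR. The groups overlapped. The log2 fold change was -0.22 ± 0.16, and the difference within CM animal 3 was -0.69 in log2 CPM, against -0.07 and 0.04 in CM animals 1 and 2. Rps20 had 293, 385 and 316 CPM in CM IR and 267, 316 and 319 CPM in CM NIR, and 327, 351 and 343 CPM in WT IR and 294, 325 and 327 CPM in WT NIR. In CM the IR and NIR libraries overlapped, and in WT the 3 IR libraries lay above all NIR libraries by a narrow gap. Groups that do not overlap were found for no member in CM (1.57% higher and 0.986% lower among all genes, 2.55% in either direction). In WT they were found for 1 member higher and 2 lower (7.47% and 6.63% of all genes, 14.1% in either direction), with Rps20 higher and Rps12 and Rps13 lower. Rpl37a had a log2 fold change of 0.15 ± 0.12 in CM and 0.13 ± 0.12 in WT, and Rps21 of 0.18 ± 0.14 in CM and 0.13 ± 0.14 in WT. Rpl23a had -0.28 ± 0.24 in WT, the lowest value of the members there, at 2.15 to 2.62 CPM in WT IR and 2.59 to 3.32 CPM in WT NIR.

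The other members fixed by name stayed close to 0 as well. Rps6 stood at 0.13 ± 0.11 in CM and 0.09 ± 0.11 in WT, and its pseudogene Rps6-ps4 at 0.05 ± 0.19 in CM and 0.03 ± 0.19 in WT. Rps27a, which encodes ubiquitin fused to a small subunit protein, stood at 0.09 ± 0.18 in CM and 0.04 ± 0.18 in WT. Rpl38, known in mice for its part in the translation of Hox mRNAs, stood at 0.07 ± 0.13 in CM and 0.04 ± 0.13 in WT. Rpl22, whose loss impairs T cell development, stood at 0.04 ± 0.15 in CM and 0.02 ± 0.15 in WT. Rpl41 stood at 0.09 ± 0.22 in both genotypes, Rps4x at 0.05 ± 0.19 in both and Rpsa at -0.02 ± 0.19 in CM and 0.01 ± 0.19 in WT. Among the steadiest members over all 12 libraries were Rpl4 and Rpl32, with SDs of 0.08 and 0.09 in log2 CPM.

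Genes of the p53 arm were read in the same fit. Of 10 listed genes of the p53 arm, edgeR called 1 higher and 0 lower in CM, where 0.00685% of all genes were called. In WT it called 5 higher and 0 lower, where 0.116% of all genes were called. With the animal as a block, 0 were called in CM (0% of all genes) and 6 in WT (1.12% of all genes), while all 10 had positive log2 fold changes in both genotypes without the block. Trp53inp1, a p53 target, had 38.3, 52.8 and 44.5 CPM in CM IR and 18.3, 15.7 and 17.7 CPM in CM NIR, and 79.7, 87.1 and 85.5 CPM in WT IR and 20.3, 20.1 and 18.6 CPM in WT NIR. Its groups did not overlap, and its log2 fold change was 1.39 ± 0.12 in CM and 2.10 ± 0.12 in WT (adjusted p = 0.00421 and 8.75e-05, edgeR; 0.0997 and 0.00642 with the animal as a block).

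Rps27l, a paralog of Rps27 known as a p53 target in human cells, was outside the name rule and stood apart from its relative. It had 118, 176 and 155 CPM in CM IR and 97.6, 97.5 and 133 CPM in CM NIR, and 159, 217 and 219 CPM in WT IR and 101, 131 and 148 CPM in WT NIR. The IR library was the higher of the pair in all 6 animals, and the groups did not overlap in WT. The log2 fold change was 0.45 ± 0.20 in CM and 0.64 ± 0.21 in WT and did not pass after adjustment over all genes (adjusted p = 1.0 and 0.646, edgeR; 0.578 and 0.0708 with the animal as a block). Rps27 itself stood at 0.53 to 1.08 CPM in CM IR and 0.55 to 0.71 CPM in CM NIR, and at 0.66 to 0.67 CPM in WT IR and 0.56 to 0.74 CPM in WT NIR. Of the 11 tested ribosomal protein genes outside the name rule, 0 were called in any of the 5 comparisons.

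The response to irradiation was also compared between the genotypes. None of the 75 members was called for the difference of responses (CM minus WT) by edgeR with or without the animal block, by DESeq2 or by limma-voom, as none (0%) of 14599 genes was by edgeR. At an unadjusted p under 0.05, 0 members and 0.726% of all genes were found. The median difference was 0.03 for the members and 0.01 for all genes. For the members it was -0.03 without CM animal 2 and 0.12 without CM animal 3. The intervals were wider here, and 25 of 75 members lay within 1.5-fold. Rpl35a had the smallest p, with a difference of 0.25 ± 0.25. Rps27 had 0.31 ± 0.38 and Rps23 -0.26 ± 0.34. The number of members that moved one way in all CM animals and the other way in all WT animals was 0 of 75, against 0.925% of all genes, so that few would be found at the background share.

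The second question was whether the genes differed between CM and WT cells. No member passed in either treatment, and Rpl10 and Rpl9 had higher values in all CM libraries than in the WT libraries of the same treatment. Among the members 0 of 75 were called in IR cells and 0 of 75 in NIR cells by edgeR, where 0.664% (IR) and 1.62% (NIR) of all genes were called. At an unadjusted p under 0.05 there were 2 members in IR cells (11.8% of all genes) and 3 in NIR cells (15.1% of all genes). The median log2 fold change of CM over WT was 0.13 in IR cells and 0.10 in NIR cells, beside 0.02 in both for all genes. Values were positive for 56 of 75 members in IR cells (52.9% of all genes) and for 53 in NIR cells (52.6% of all genes). Scaled by library totals only, in place of TMM factors, the members' median was 0.08 in IR cells and 0.02 in NIR cells. The median of all genes under that scaling is not given here.

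The medians depended on CM animals 2 and 3. Within library series A, where CM animals 1 and 2 stand against WT animal 1, the median of CM minus WT was 0.17 in IR cells and 0.10 in NIR cells. Within series B, where CM animal 3 stands against WT animals 2 and 3, it was -0.04 in IR cells and 0.04 in NIR cells. Without CM animal 2 the medians were -0.01 in IR cells and 0.02 in NIR cells, and without CM animal 3 they were 0.24 in IR cells and 0.15 in NIR cells. The IR library of CM animal 2 lay above the gene's mean over all 12 libraries for 73 of 75 members, with a median of 0.33 in log2 CPM. The next highest library was its NIR library, with 56 members and a median of 0.18. In the other 10 libraries the number of members above the mean was 23 to 36.

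**Figure D3:**
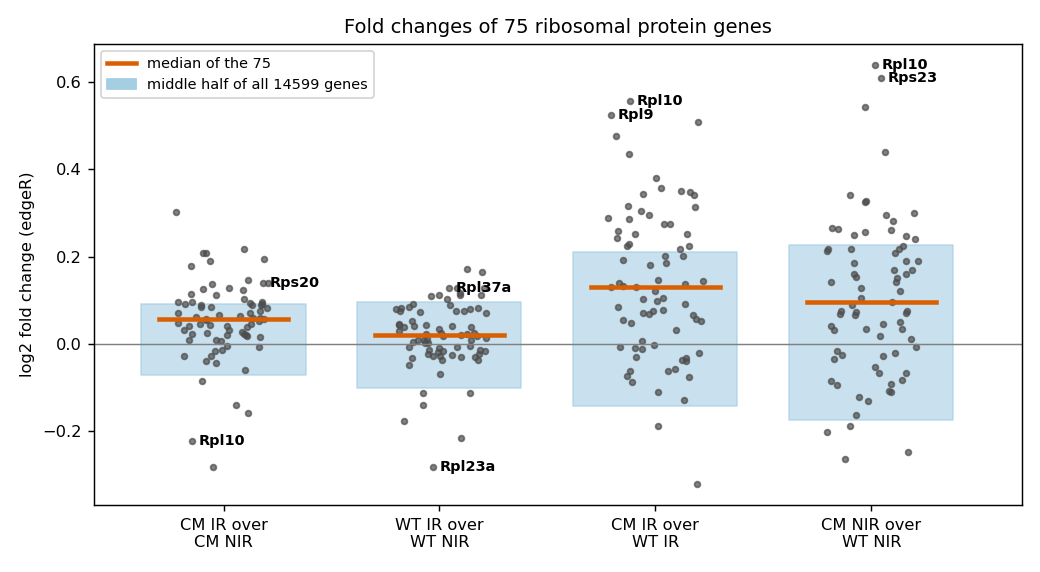
Log2 fold changes (edgeR) of 75 ribosomal protein genes in 4 comparisons, with the members' median as a line, the interquartile range of all tested genes as a band, and the 2 members with the smallest p labelled. The medians were 0.06 and 0.02 for irradiation in CM and WT and 0.13 and 0.10 for CM over WT in IR and NIR cells, and no member passed.

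Rpl10, which joins the large subunit as one of its last proteins and is mutated in some human T cell leukemias, had the smallest p between genotypes. It had 33.9, 36.8 and 25.1 CPM in CM IR, against 22.6, 19.5 and 22.9 CPM in WT IR. In NIR cells it had 35.6, 35.7 and 40.5 CPM in CM, against 28.2, 23.6 and 19.98 CPM in WT. All CM libraries lay above all WT libraries of the same treatment. The log2 fold change was 0.56 ± 0.16 in IR cells and 0.64 ± 0.16 in NIR cells (adjusted p = 0.171 and 0.0860, edgeR). DESeq2 called Rpl10 in NIR cells (0.63 ± 0.19, adjusted p = 0.0159), where it called 6.32% of all genes. Within series A the difference of CM minus WT in log2 CPM was 0.65 in IR cells and 0.34 in NIR cells, and within series B it was 0.24 in IR cells and 0.90 in NIR cells. As shown above, a coding stretch of Rpl10 is identical in Rpl10-ps3, and 92.9% of its coding stretches occur there, so the count cannot be assigned to Rpl10 with certainty.

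Rpl9 and Rps23 followed. Rpl9, of the large subunit, had 14.6, 18.03 and 10.8 CPM in CM IR, against 10.2, 9.27 and 10.6 CPM in WT IR, and 13.6, 15.3 and 15.3 CPM in CM NIR, against 11.8, 11.3 and 9.49 CPM in WT NIR. The groups did not overlap in either treatment, though the IR library of CM animal 3 was 10.8 CPM beside 10.6 CPM in the highest WT IR library. The log2 fold change was 0.53 ± 0.18 in IR cells and 0.44 ± 0.18 in NIR cells (adjusted p = 0.235 and 0.277, edgeR). Rps23, a protein of the decoding centre, had 8.22, 10.8 and 10.3 CPM in CM NIR, against 7.50, 5.84 and 5.87 CPM in WT NIR (0.61 ± 0.24, adjusted p = 0.261). In IR cells its groups overlapped, at 6.25 to 11.9 CPM in CM and 6.03 to 8.21 CPM in WT. Rps13 had 2.78, 3.58 and 5.10 CPM in CM NIR, against 2.52, 2.67 and 2.66 CPM in WT NIR (0.54 ± 0.29, adjusted p = 0.411).

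Groups that did not overlap were found for 4 members in IR cells (Rpl10, Rpl9, Rps16 and Rps12) and 4 in NIR cells (Rpl10, Rps23, Rpl9 and Rps13), all higher in CM. Among all genes 9.23% (IR) and 8.14% (NIR) were higher in CM without overlap. No member was lower without overlap, whereas 8.36% (IR) and 7.84% (NIR) of all genes were, for 17.6% (IR) and 16% (NIR) apart in either direction. Rps12 and Rps16 were highest in CM animal 2 in IR cells. Rps12 had 13.1, 24.7 and 13.0 CPM in CM IR, against 12.6, 11.4 and 11.6 CPM in WT IR. Its log2 fold change was 0.51 ± 0.26 (adjusted p = 0.492), and that of Rps16 was 0.35 ± 0.17 (adjusted p = 0.471). All coding stretches of Rps16, Rps23 and Rps13 also occur in other annotated genes. For Rpl9 it is 85.3% of the stretches and for Rps12 73.8%. The counts cannot be assigned to these members with certainty either.

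**Figure D4:**
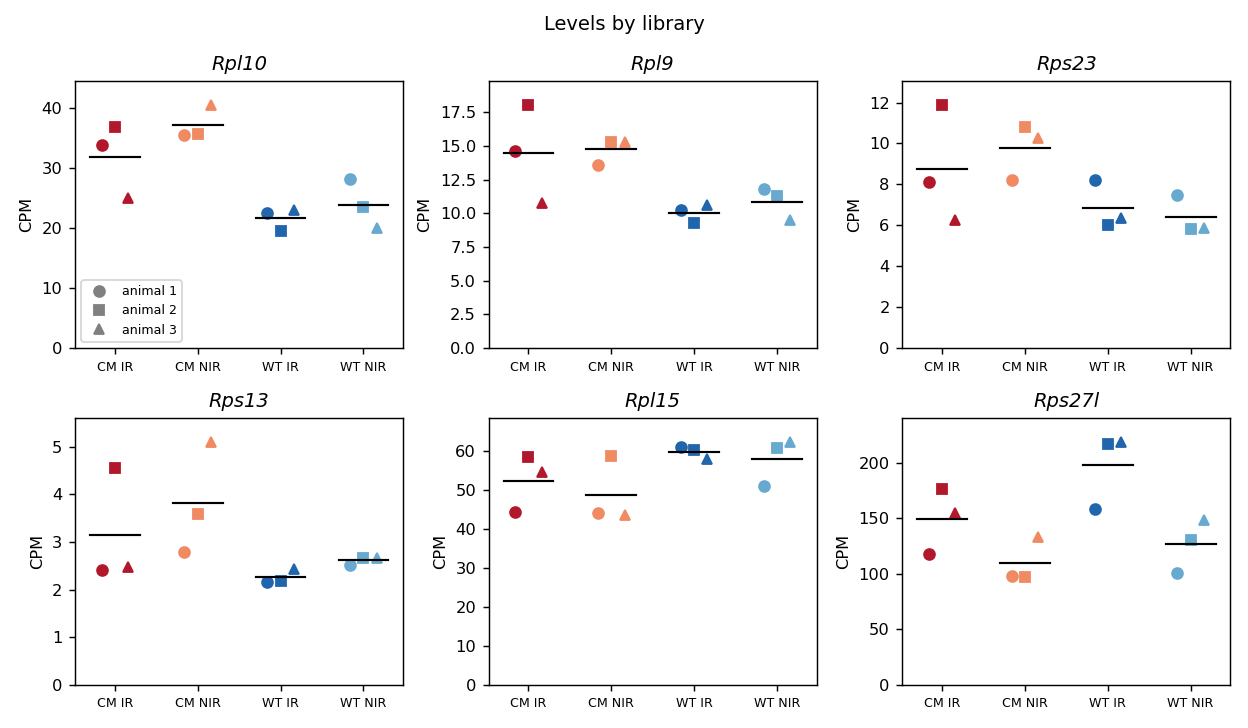
Levels in CPM by library of Rpl10, Rpl9, Rps23, Rps13, Rpl15 and the paralog Rps27l in the 4 groups, with a line at the mean and a symbol for each animal. Rpl10 is higher in every CM library than in the WT libraries of the same treatment, and Rps27l is higher in the IR than in the NIR library of each animal.

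Leaving out CM animal 2 changed which members were called. Without it, edgeR called 2 members in NIR cells, where it called 16.9% of all genes. Rpl10 was higher in CM (0.67 ± 0.17, adjusted p = 0.0339) and Rpl15, a large subunit protein, was lower (-0.40 ± 0.12, adjusted p = 0.0480). All 50-base coding stretches of Rpl15 occur in the pseudogene Rpl15-ps3, so the count cannot be assigned to Rpl15 with certainty. Rpl15 had 44.3, 58.8 and 43.6 CPM in CM NIR, against 51.0, 60.8 and 62.4 CPM in WT NIR, so that CM animal 2 was within the WT range. With all animals its log2 fold change was -0.25 ± 0.14 (adjusted p = 0.454). In IR cells no member was called without that animal, against 6.78% of all genes.

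The 15 tested members among the 16 fixed by name did not pass between genotypes. In NIR cells the log2 fold change of CM over WT was 0.32 ± 0.29 for Rps19, 0.28 ± 0.19 for Rpsa, 0.25 ± 0.22 for Rpl41 and 0.18 ± 0.18 for Rplp0. It was -0.20 ± 0.22 for Rpl5, 0.14 ± 0.24 for Rpl11 and -0.16 ± 0.15 for Rpl23. Of the 75 members 40 in IR cells and 44 in NIR cells had a 95% interval within 1.5-fold. Within 2-fold there were 73 in IR cells and 71 in NIR cells.

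The genes that make and regulate ribosomes were read beside them, from lists chosen with earlier results of these data known. After irradiation none was called of 43 genes of nucleolar processing and assembly, 20 of RNA polymerase I and ribosomal DNA transcription, 78 mitochondrial ribosomal proteins, 19 translation factors with TOP mRNAs and 10 snoRNA host genes, in CM or in WT. Between CM and WT none was called either. The shares of all genes called were those given above, at most 1.62% in these 4 comparisons, so lists of this size would hold few calls at the background share. The assembly list had a median of -0.06 in IR cells and -0.09 in NIR cells for CM over WT, with 16 and 11 of 43 genes positive. Over all genes the median was 0.02 in both, with 52.9% (IR) and 52.6% (NIR) positive. Npm1, the nucleolar protein nucleophosmin, had 510, 674 and 645 CPM in CM IR, against 662, 738 and 740 CPM in WT IR, and 603, 657 and 583 CPM in CM NIR, against 627, 804 and 852 CPM in WT NIR. Its log2 fold change was -0.31 ± 0.14 in NIR cells (adjusted p = 0.323, edgeR). The mitochondrial list had medians of 0.02 (IR) and 0.00 (NIR).

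Many members differed between libraries of different number. The libraries carry numbers in the labels that fall into a series A (both libraries of CM animals 1 and 2 and of WT animal 1) and a series B (CM animal 3 and WT animals 2 and 3). What separates the series is not stated, and each holds both genotypes and both treatments. The comparison was chosen after the values were seen. All 6 libraries of series A lay above all 6 of series B for 20 members and below them for 10, so that 30 of 75 members were apart. Among all genes 5.64% were above, 4.06% below and 9.7% apart in either direction. The number was 30 to 33 when any library was left out, 28 with RLE normalization, 27 with TMM factors made without the ribosomal protein genes and 23 with library totals only.

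Rps19 was the clearest, at 127 to 170 CPM in series A and 78.8 to 96.0 CPM in series B. Its log2 difference of A over B was 0.68 ± 0.06 (SE), from counts summed for each of the 6 animals and fitted with terms for genotype and series. Rpl8 had 1161 to 1353 CPM in series A and 776 to 935 CPM in series B (0.51 ± 0.07), and Rps9, a small subunit protein, had 848 to 1086 CPM in A and 592 to 692 CPM in B (0.53 ± 0.07). Rplp0 stood at 719 to 773 CPM in A and 526 to 602 CPM in B (0.39 ± 0.06). In the other direction Rpl31 had 18.4 to 22.1 CPM in A and 25.1 to 26.9 CPM in B (-0.43 ± 0.09), and Rps4x had 456 to 582 CPM in A and 643 to 723 CPM in B (-0.39 ± 0.10).

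In the fit on 6 animals no member and none (0%) of 14599 genes passed after adjustment, and 29 of 75 members and 12.5% of all genes had an unadjusted p under 0.05. A limma-voom fit on the 12 libraries with the animal as a block called 0 members too, and 0% of all genes. The fit without CM animal 2 called 37 members, 21 higher and 16 lower in A, and 30.3% of all genes. Without any other animal it called none. The fit on 12 libraries with no animal term called 18 members higher and 10 lower in A (11.2% of all genes), but its p-values are too small because each animal counts as 2 libraries.

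Members that were apart in opposite directions differed in base composition. The coding GC content had a median of 55.9% (51.6 to 59.5%) in the 20 genes higher in A and of 48.8% (45.9 to 58.5%) in the 10 lower in A. Over the 75 members GC content and the difference of A over B were related at a Spearman coefficient of 0.55, and over 13326 other tested genes at 0.54. The cause of the relation was not tested. The share of coding stretches with a copy was close in both sets, with medians of 76.3% and 81%.

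**Figure D5:**
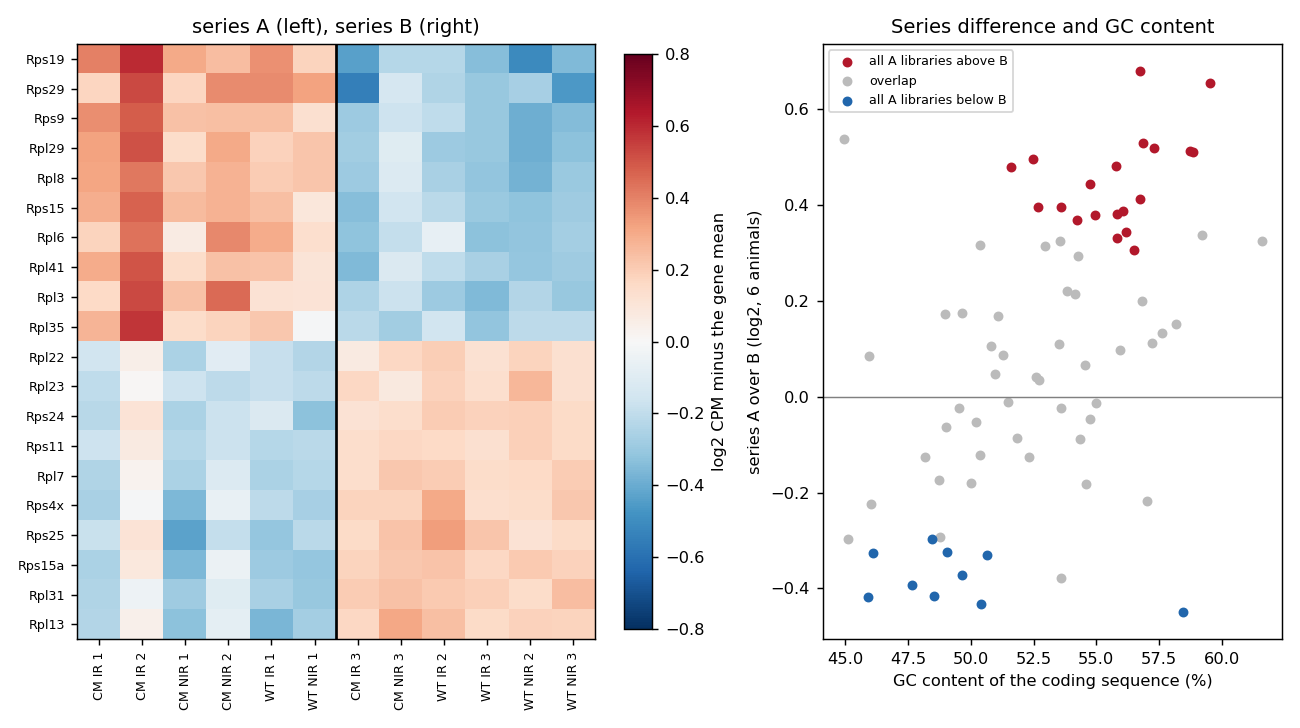
Left, log2 CPM minus the gene's mean (colour) in 12 libraries for 20 of the 30 members whose series A and series B libraries do not overlap, the 10 with the largest difference in each direction; right, log2 difference of series A over B (6 animals) against coding GC content (%) for 75 members. The 20 genes higher in A have a median GC content of 55.9% and the 10 lower in A one of 48.8%.

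Since series A holds 2 CM animals and 1 WT animal, and series B the reverse, the series enters the comparison of CM with WT. With series as an added term the median of CM over WT fell to 0.09 in IR cells, against 0.13 without the term, and to 0.06 in NIR cells, against 0.10. Rpl10 then stood at 0.48 in IR cells and 0.59 in NIR cells (adjusted p = 0.220 and 0.0969, edgeR). No member was called with the term, and the share of all genes called in that fit is not given here. The IR and NIR libraries of an animal belong to the same series, so each series is equally present in the IR and NIR groups of a genotype. The main fit has no animal term, and the spread between series therefore enters its SE for IR over NIR.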

How the data were processed

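The authors deposited a table of counts (whole numbers per gene and library) and a table of RPKM values, both for 25078 genes and 12 libraries. Per the labels' protocols, libraries were stranded and depleted of ribosomal RNA. The submitters' processing notes name bcl2fastq 2.18.0.12, TopHat2, HTSeq 0.6.1p1 and the build mm10; how reads with several matches were treated, and the strand setting, is not given in the sources used here, so copies, paralogs and overlapping genes are uncertain. The deposited RPKM were used for levels between genes and in alternatives. Nothing says whether library preparation was replicated beyond 1 library per animal and treatment.

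filterByExpr (at least 10 counts, total of at least 15) kept 14599 genes, which were normalized by TMM and fitted with edgeR 4.0.16's quasi-likelihood test, all 12 libraries and 1 mean per group. Adjustment was by Benjamini-Hochberg over all genes, with a threshold of 0.05. CPM use the TMM effective library size; log2 CPM used a prior count of 2. SE come from the fit. Alternatives used DESeq2 1.42.0 and limma 3.58.1. IR and NIR libraries with the same animal label were paired: their deviations from the group means correlated at 0.79, 0.84 and 0.13 in CM animals and 0.67, 0.50 and 0.41 in WT animals. No 2 libraries agreed within sampling noise (smallest chi-square per degree of freedom 14.7). Depth was 68490566 to 110795261 counts; counting error matters for genes near 50 counts, such as Rpl30.

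Named genes were 16 fixed members, the 4 with the smallest p per contrast, the 3 highest and lowest in RPKM and the 3 most and least variable; Rpl15, Rps9, Rps3, Rpl31, Rpl28, Rpl14, Rpl37, Rpl34 and Rpl7a were named after their values were seen. Some members that the rule names are not reported here. The members and lists were chosen with earlier results of these data known. Shared coding stretches and sequences came from GENCODE vM21, start windows from RefSeq (GRCm38.p6), taking the window nearest to the deposited 5′ end. The edgeR fit and the search for shared stretches were tested on simulated counts and by direct string matching. The simulated counts held no animal or series effect, so they do not bear on how the fit treats paired libraries.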

Additional observations from a re-analysis of the deposited data

How the results depend on the processing

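No member was called in any of the 5 contrasts under the other tools, scalings, filters and left-out single libraries, with 1 exception: DESeq2 called 1 (Rpl10) in NIR cells of CM against WT. Leaving out both libraries of CM animal 2, added after seeing the data, gave 2 calls there. Without CM animal 3 no member was called in any contrast. The animal as a replicate block changed no call (0 members in each contrast). For most of these settings the share of all genes called is not given, so these counts are not read as a result about the members. When each library was left out in turn, the members' median ranged from -0.080 to 0.14 for irradiation in CM, from -0.0093 to 0.031 for irradiation in WT and from -0.10 to 0.11 for the difference of responses. The lowest values in CM and for the difference of responses came without the IR library of CM animal 2, and the lowest in WT without the IR library of WT animal 1. The difference in the summed share of counts (percentage points) ranged from -0.055 to 0.181 for irradiation in CM and from -0.087 to 0.15 for the difference of responses. As a share of summed RPKM, which has another scale, the differences were 0.246 in CM, 0.092 in WT and 0.154 between them. Between library series, the 12-library fit called 28 members and the fit without CM animal 2 called 37, against 0 from all 6 animals. Single uncalled members changed sign. Without CM animal 3, Rps13 stood at 0.14 for irradiation in CM and 0.35 for the difference of responses. Without CM animal 2, Rps27a stood at -0.092 and Rpl38 at -0.082 for irradiation in CM, and Rpl11 at -0.13, Rplp1 at -0.044, Rplp2 at -0.13 and Rps27 at -0.059 for CM over WT in IR cells. With single libraries left out, irradiation in CM ranged from -0.25 to 0.27 for Rpl11, -0.093 to 0.14 for Rpl38, -0.0082 to 0.20 for Rplp1, -0.16 to 0.18 for Rplp2, -0.0014 to 0.52 for Rps27 and -0.13 to 0.25 for Rps27a. CM over WT in IR cells ranged from -0.13 to 0.39 for Rpl11, -0.044 to 0.17 for Rplp1, -0.13 to 0.16 for Rplp2 and -0.060 to 0.46 for Rps27. The cause was not tested. Where a library was left out, a group of 2 remained.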
